A study of Mus musculus with 8 samples.

Results

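The genes described here are 38 genes of myeloid cells, Langerhans cells and MHC class II antigen presentation, chosen by gene symbol. Probe sets that name 1 gene were found on the array for 37 of them, out of 19938 genes measured in this way. Where a gene had several such probe sets, the one with the highest mean was used. The exception, H2-DMb1, is read only by a probe set that also names H2-DMb2. By role the 37 genes are 7 of class II presentation, 4 of Langerhans cells and T cell costimulation, 12 of macrophages and monocytes, 4 Fc receptors and adaptors, and 10 carried by leukocytes more widely.

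RNA came from keratinocytes of the back skin of CD1 mice, an outbred stock, aged 8 weeks. The mice were K14Snail, in which the keratin 14 promoter drives the transcription factor Snail, or wild type. That promoter is known to be active in basal keratinocytes. The cells were taken off the skin with trypsin overnight and separated with magnetic beads, in 1 sort by CD34, a surface protein of hair follicle bulge stem cells, and in another by Mts24, an antibody to the follicle protein Plet1. The 8 groups are K14Snail and wild type in each of the CD34 positive, CD34 negative, Mts24 positive and Mts24 negative fractions, and each has 1 array. Each group was a pool of 11 mice (CD34 sort) or 9 mice (Mts24 sort) of both sexes, so genotype cannot be told apart from other differences between the pools. The sources used here do not say whether the positive and negative cells of a sort came from the same pool.

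MHC class II molecules are pairs of alpha and beta chains that display peptides to CD4 T cells. They are assembled on the invariant chain, loaded in lysosome-like compartments with the help of H2-DM, and switched on by the coactivator Ciita. In healthy epidermis they are known as a property of Langerhans cells, the resident dendritic cells, which depend on the receptor Csf1r and its ligand Il34. Macrophages lie mainly in the dermis beneath and express lysozyme, complement C1q and scavenger receptors. In RNA from a pool of cells, fewer cells of a type and less RNA per cell cannot be told apart.

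Levels are the deposited log2 values, on which 1 unit is a 2-fold difference. Levels of different genes were not compared, apart from a filter level common to all genes and sums over lists. Probes differ between genes, so neither ranks genes by amount of RNA. Array medians lay between 7.32 and 7.42. Snai1, the gene of Snail, was at 10.91 and 11.00 in the K14Snail positive fractions, against 8.02 and 8.16 in the wild type positive fractions, and at 11.04 and 10.84 in the K14Snail negative fractions, against 7.99 and 7.86 in the wild type ones. In each pair of values the CD34 sort comes before the Mts24 sort, here and throughout. Cd34 was at 13.29 in K14Snail and 13.57 in wild type CD34 positive cells, against 6.27 and 6.12 in their CD34 negative cells. Plet1 was at 12.64 in K14Snail and 12.88 in wild type Mts24 positive cells, against 9.16 and 9.91 in their Mts24 negative cells. Each negative fraction was sorted against its own marker only. Cd34 was at 10.51 in K14Snail and 10.03 in wild type Mts24 negative cells, against 11.56 and 12.12 in Mts24 positive ones. Plet1 was at 11.22 in K14Snail and 11.15 in wild type CD34 negative cells, against 11.74 and 11.82 in CD34 positive ones. Markers of the labelled cell type were high: all 12 keratinocyte genes, such as Krt5 and Krt14, lay above 7.70 on all 8 arrays, with array medians of 12.76 to 13.37. The level of 7.70 is the median of all values, and a gene entered the tests if at least 2 arrays reached it. It is not a detection limit, since the deposited values carry no background call.

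Of the 37 genes, 19 passed this filter. Among the 18 that did not, Cd83 reached 7.70 on 1 array and the other 17 on 0. They include most of the macrophage genes. Lyz2 passed only through the 2 K14Snail positive arrays, and Ptprc and Fcer1g only through the 4 negative arrays, so each was admitted by the side on which it is high. A further 8 genes reached 7.70 on 6 arrays: Ctss, Cd207, Csf1r, Tyrobp, Cd53, Cd52, Coro1a and Spi1. All of these lay below it on the 2 wild type positive arrays, so they too were admitted only by the groups in which they are higher. Counts over tested genes are therefore a description, and counts over all 37 genes, fitted with no filter, are given with them.

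**Figure D1:**
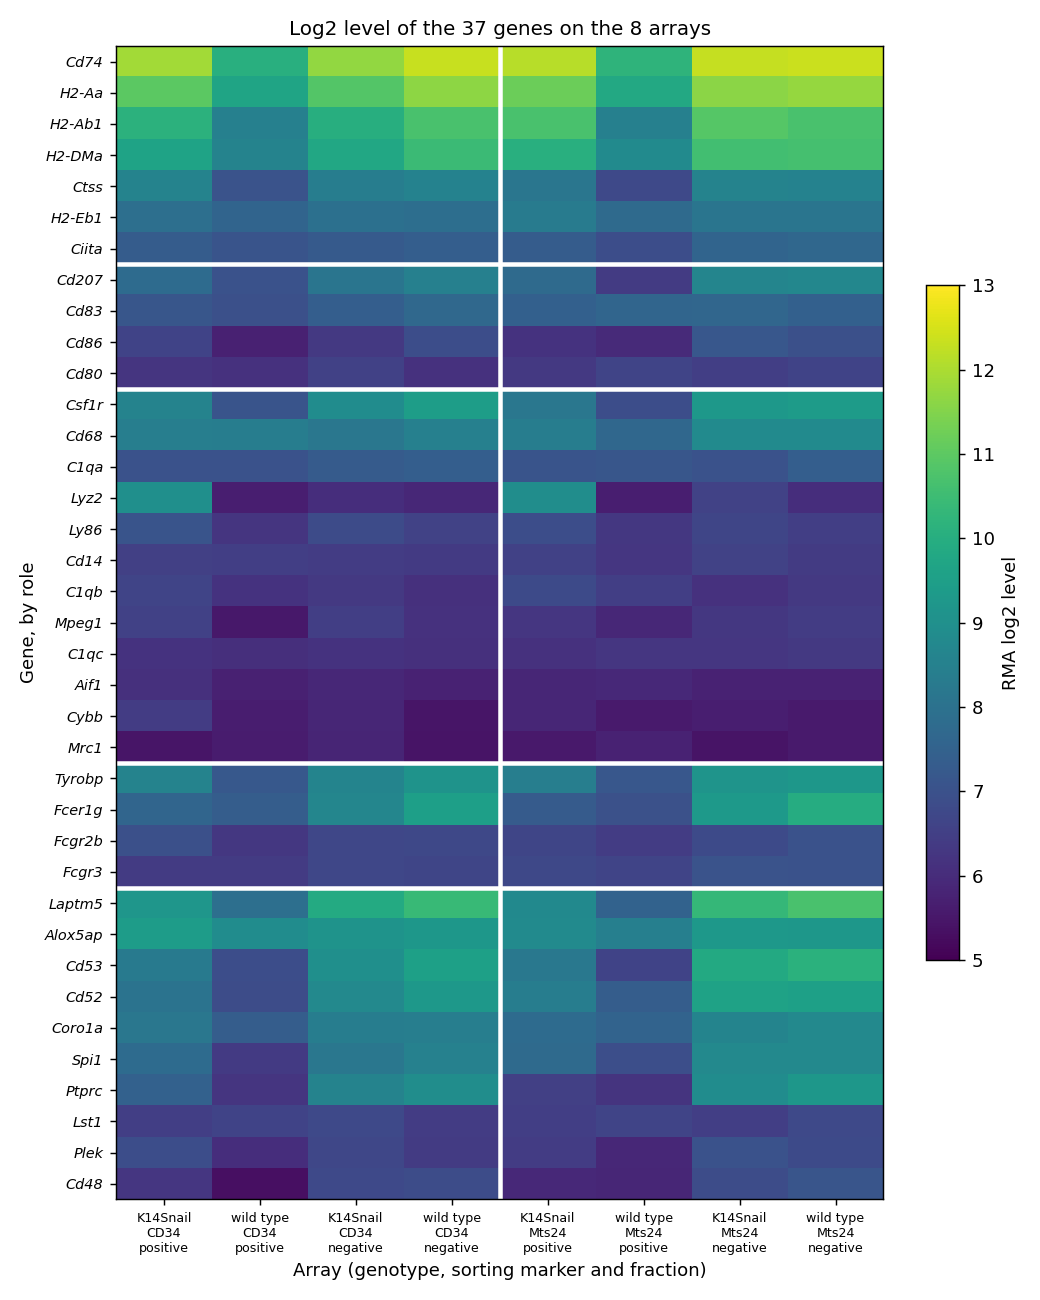
Deposited log2 level (colour) of the 37 genes (rows, grouped by role from class II presentation at the top through Langerhans and costimulation, macrophage and monocyte, Fc receptors and adaptors, to leukocyte genes at the bottom) on the 8 arrays (columns), with 1 array per group. The wild type CD34 positive and Mts24 positive columns are darker than the other 6 for Cd74, H2-Aa, H2-Ab1, Csf1r, Laptm5 and Cd53, and Lyz2 is bright on the 2 K14Snail positive arrays.

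The question for the genotype was whether these genes differ between K14Snail and wild type mice in the marker positive fractions and in the cells each sort left behind. In the positive fractions 30 of the 37 genes had a higher level in K14Snail than in wild type in both the CD34 and the Mts24 pair, and 3 (C1qa, Mrc1 and Lst1) a lower one in both. Of all 19938 genes, 5589 were higher and 7562 lower in both pairs. With 1 array per group, 14 of the 37 genes were at least 2-fold higher in K14Snail in the CD34 positive pair, where 1.87% of all genes were. In the Mts24 positive pair 12 of the 37 were, against 0.963% of all genes. In both pairs at once 11 of the 37 genes, 29.7%, were at least 2-fold higher, against 0.391% of all genes: Lyz2, Cd74, H2-Ab1, H2-Aa, H2-DMa, Ctss, Csf1r, Tyrobp, Laptm5, Cd53 and Cd52. For the CD34 negative pair 0 of the 37 genes were 2-fold higher and 0 lower, where 0.286% of all genes were higher and 0.266% lower. For the Mts24 negative pair these were also 0 and 0, beside 0.316% and 0.155%. The median difference over the 37 genes, averaged over both sorts, was 0.55 in the positive and -0.11 in the negative fractions, beside -0.04 and -0.004 over all genes.

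Tests were made with limma on all 8 arrays, with the CD34 and Mts24 sorts serving as replicates of one another, and p-values were adjusted by Benjamini-Hochberg over all 10720 tested genes. The error of a positive fraction difference thus rests on how alike the CD34 and Mts24 pairs are, with 2 residual degrees of freedom. In the positive fractions 12 of the 19 tested genes rose in K14Snail at an adjusted p under 0.05 and 0 fell, where 1.41% of all tested genes rose and 1.22% fell. With no filter 14 of the 37 rose, where 1.04% of all genes did; Cd207 and Ly86 were added. In the negative fractions 0 of 19 passed, where 0.0653% of all tested genes did. With no filter 0 of the 37 passed, where 0.0802% of all genes did. Of the 19, 5 had an unadjusted p under 0.05 in the negative fractions and 17 a negative difference, where 8.86% and 47.7% of all tested genes did. With no filter, 15 of the 37 genes were lower in K14Snail in both negative pairs and 6 higher, where 5375 and 5095 of all 19938 genes were. Without any 1 of the 4 negative arrays, 1 gene (Lyz2) rose in the positive fractions, where 0.028% of all tested genes were called. Without a CD34 positive array 14 did, where 5.78% of all tested genes were called, and without an Mts24 positive array 16, where 13.2% were, with the error then taken from the negative fractions.

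**Figure D2:**
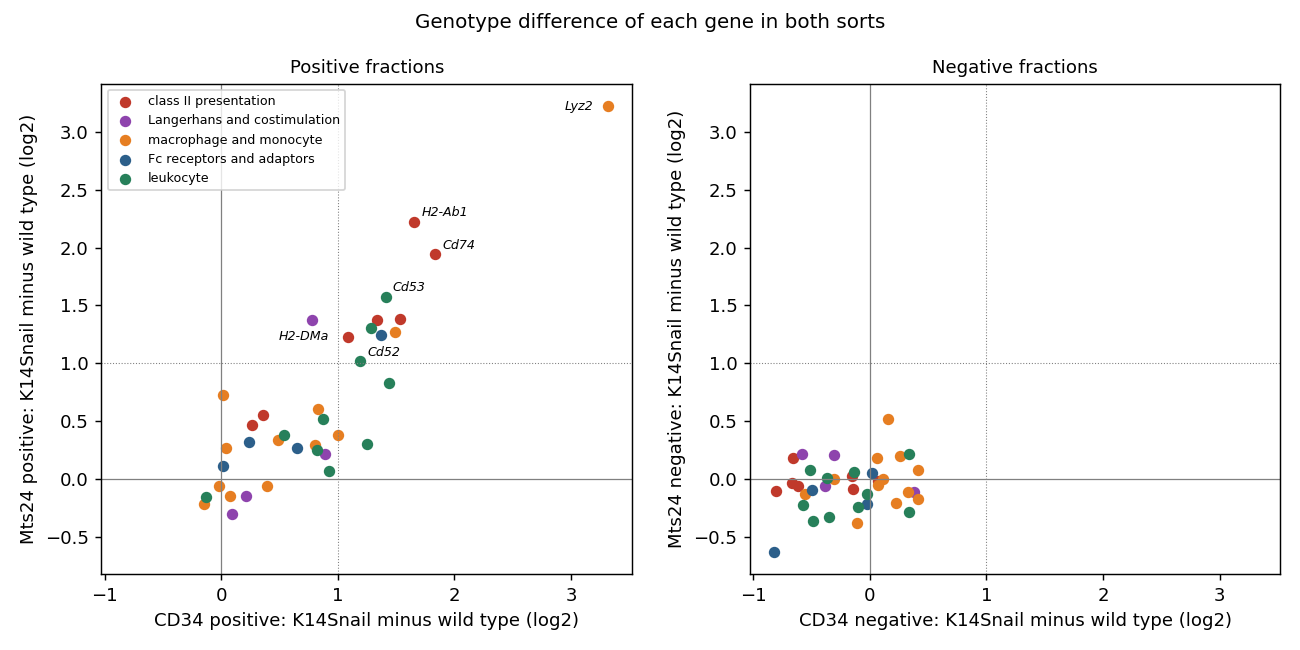
K14Snail minus wild type difference in log2 level of each of the 37 genes, in the CD34 sort (horizontal axis) and the Mts24 sort (vertical axis), for the positive fractions (left) and the negative fractions (right). Colours give the role of the gene and dotted lines mark 1 log2 unit, a 2-fold difference. In the positive fractions 11 genes lie beyond 1 in both sorts, and in the negative fractions 0 do.

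Genes of class II presentation were higher in K14Snail in both positive fractions without exception: 7 of 7 had a positive difference in the CD34 and in the Mts24 pair, and 5 of the 6 that were tested passed. A positive difference in both pairs was found for 5589 of all 19938 genes, and 1.41% of all tested genes rose. Cd74, the invariant chain on which class II molecules are assembled, had levels of 11.88 and 12.15 in the K14Snail positive fractions, against 10.05 and 10.21 in the wild type positive fractions. Among negative fractions it stood at 11.71 and 12.31 in K14Snail, against 12.32 and 12.37 in wild type. The wild type positive arrays thus lay below the other 6, which overlapped. Cd74 rose by 1.89 ± 0.15 (moderated SE, as for all differences) in the K14Snail positive fractions (limma adjusted p = 0.0200), a 3.70-fold difference.

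H2-Aa, an alpha chain, read 11.00 and 11.22 in the K14Snail positive fractions, against 9.66 and 9.84 in the wild type ones. In the negative fractions it read 10.85 and 11.62 in K14Snail, against 11.65 and 11.72 in wild type. Its partner beta chain H2-Ab1 read 10.14 and 10.70 in the K14Snail positive fractions, against 8.49 and 8.48 in wild type, and 10.03 and 10.88 in the K14Snail negative fractions, against 10.69 and 10.70 in wild type. Both chains were lowest on the wild type positive arrays, and their K14Snail positive levels lay within the range of the negative fractions. In the positive fractions H2-Ab1 rose by 1.94 ± 0.26 (limma adjusted p = 0.0389) and H2-Aa by 1.36 ± 0.18 (limma adjusted p = 0.0382). H2-Eb1, the beta chain of the second class II isotype, had a smaller difference of 0.46 ± 0.09 that did not pass (limma adjusted p = 0.0791), with levels of 7.57 to 8.32 over the 8 arrays. These chains are highly polymorphic and CD1 mice are outbred, and whether the probes match the alleles of all pools equally well was not tested.

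H2-DMa, a chain of the H2-DM editor that exchanges peptides on class II, had levels of 9.65 and 10.05 in the K14Snail positive fractions, against 8.57 and 8.82 in the wild type positive fractions. Its negative fraction levels were 9.78 and 10.59 in K14Snail, against 10.45 and 10.63 in wild type. Its wild type positive levels lay below all others, and the rise in K14Snail positive fractions was 1.16 ± 0.17 (limma adjusted p = 0.0460). The probe set shared by H2-DMb1 and H2-DMb2, beta chains of the same editor, read 8.26 and 8.41 in the K14Snail positive fractions, against 7.67 and 7.44 in wild type. It read 8.09 and 8.60 in the K14Snail negative fractions, against 8.52 and 8.53 in wild type. It was not in the test, and its wild type positive values were again the lowest.

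Ctss, the lysosomal protease that trims the invariant chain, read 8.59 and 8.15 in the K14Snail positive fractions, against 7.06 and 6.77 in the wild type positive fractions, and 8.40 and 8.56 in the K14Snail negative fractions, against 8.55 and 8.54 in wild type. Its rise in the positive fractions was 1.46 ± 0.09 (limma adjusted p = 0.0147). The other 6 arrays lay between 8.15 and 8.59. Ciita itself, the class II coactivator, was below 7.70 on all 8 arrays. Its levels were 7.33 and 7.34 in the K14Snail positive fractions, against 7.07 and 6.88 in wild type, and 7.25 and 7.59 in the K14Snail negative fractions, against 7.40 and 7.68 in wild type. The positive difference of 0.36 ± 0.10 did not pass with no filter (limma adjusted p = 0.156).

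Promoter sequences of 3 class II genes are shown because class II promoters are known to share a module of S, X and Y boxes, read by the RFX, CREB and NF-Y factors that Ciita binds. RefSeq promoter sequences (GRCm38.p6) were given for 25 of the 38 genes. Each line holds the 150 bases before the start, 5′ to 3′ on the strand of the gene. H2-Aa is at chr17:34287824-34287973 (minus strand), H2-Eb1 at chr17:34305717-34305866 (plus strand) and H2-DMb1 at chr17:34153041-34153190 (plus strand). Capitals mark matches on either strand to the inverted CCAAT box ATTGG, to the cyclic AMP response element TGACGTCA, to the X box consensus and to GAGGAA, a core of sites for Spi1 (PU.1). These motifs were chosen with the sequences in view.
H2-Aa: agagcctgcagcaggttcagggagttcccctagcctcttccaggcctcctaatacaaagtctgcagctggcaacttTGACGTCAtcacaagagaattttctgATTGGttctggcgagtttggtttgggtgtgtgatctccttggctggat
H2-Eb1: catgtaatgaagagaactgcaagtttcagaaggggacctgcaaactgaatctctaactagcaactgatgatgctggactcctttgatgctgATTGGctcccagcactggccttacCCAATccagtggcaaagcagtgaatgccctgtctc
H2-DMb1: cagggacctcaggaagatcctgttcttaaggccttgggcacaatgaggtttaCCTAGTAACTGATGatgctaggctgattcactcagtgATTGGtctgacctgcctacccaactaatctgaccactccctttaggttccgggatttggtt

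Within 250 bases before the start, ATTGG stood in 4 of the 5 class II genes with a promoter (H2-Aa, H2-DMa, H2-DMb1 and H2-Eb1) and in 10 of the 25 genes, against 33.8% of 32851 promoter windows of that length. An exact match to the X box consensus was found in H2-DMb1 alone of the 25, against 0.0487% of windows, and TGACGTCA in H2-Aa alone, against 1.55%. The H2-Eb1 stretch holds actagcaactgatg, which differs from that consensus in its first letter only and is not marked or counted. A match describes these letters only, and a window without one says nothing about binding of the factor.

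Among further class II and lysosomal processing genes, 1 of 6 tested rose in the K14Snail positive fractions and 0 fell. It was Ctsz, cathepsin Z, at 10.66 and 9.69 in the K14Snail positive fractions, against 10.001 and 8.91 in wild type (0.72 ± 0.10, limma adjusted p = 0.0414). Lgmn, an asparaginyl endopeptidase of lysosomes, rose over the 4 fractions by 0.48 ± 0.07 (limma adjusted p = 0.0418). Calls over the 4 fractions depend on the model: 220 of all tested genes passed, and 6 with a pool correlation of 0.25 set in it. Lgmn was not examined in that setting. Of the regulators of class II genes, which are RFX, NF-Y and CREB subunits and the interferon gamma pathway, 0 of 13 tested passed for genotype in the positive fractions, 0 in the negative fractions and 0 over the 4 fractions. Irf1, an interferon-induced factor upstream of Ciita, had a positive fraction difference of 0.996 ± 0.28 (limma adjusted p = 0.132). It read 9.98 and 10.41 in the K14Snail positive fractions, against 8.49 and 9.905 in wild type, and 9.98 and 9.47 in the K14Snail negative fractions, against 9.08 and 9.08 in wild type. Irf1 was thus higher in K14Snail in the negative fractions too.

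Of the Langerhans and costimulation genes, Cd207 was the only one tested. Cd207 (langerin), the lectin that defines Langerhans cells, read 7.79 and 7.78 in the K14Snail positive fractions, against 7.01 and 6.40 in the wild type positive fractions, and 8.10 and 8.65 in the K14Snail negative fractions, against 8.48 and 8.71 in wild type. Its K14Snail positive levels lay between those of the wild type positive fractions and those of all negative fractions. The positive fraction difference, 1.08 ± 0.18, missed the threshold (limma adjusted p = 0.0567; 0.0447 with no filter). The costimulatory genes were near or below 7.70. Cd83, a marker of mature dendritic cells, read 7.15 and 7.46 in the K14Snail positive fractions, against 6.94 and 7.61 in wild type, and 7.40 and 7.65 in the K14Snail negative fractions, against 7.71 and 7.45 in wild type. Its 2 genotypes overlapped. Cd86, a ligand of CD28, was at 6.61 and 6.18 in the K14Snail positive fractions, against 5.72 and 5.97 in wild type, and Cd80 was at 6.15 to 6.64 over the 8 arrays.

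Among macrophage and monocyte genes, Lyz2 and Csf1r rose and most of the others stayed low everywhere. Lyz2, the macrophage lysozyme, had levels of 8.97 and 8.91 in the K14Snail positive fractions, against 5.66 and 5.68 in the wild type positive fractions. In the negative fractions it was at 6.04 and 6.57 in K14Snail, against 5.88 and 6.05 in wild type. It was thus the one gene of the 37 at or above 7.70 on the 2 K14Snail positive arrays and no others. Lyz2 rose by 3.27 ± 0.11 in the positive fractions (limma adjusted p = 0.0046), on a scale on which its 6 other levels are too low to give the size firmly. Lyz1, the lysozyme of Paneth cells, is a near-identical copy of Lyz2, and which of these gave the signal was not tested.

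Csf1r, the receptor for the growth factors Csf1 and Il34, showed another pattern. It read 8.58 and 8.16 in the K14Snail positive fractions, against 7.09 and 6.90 in the wild type positive fractions, and 8.90 and 9.27 in the K14Snail negative fractions, against 9.46 and 9.40 in wild type. The K14Snail positive levels were between those of the wild type positive fractions and those of the negative fractions. Csf1r rose by 1.38 ± 0.13 in the positive fractions (limma adjusted p = 0.0238). Cd68, a lysosomal glycoprotein of macrophages, read 8.42 and 8.38 in the K14Snail positive fractions, against 8.40 and 7.66 in wild type, so it differed in the Mts24 sort and not in the CD34 sort (0.37, limma adjusted p = 0.323).

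The other 9 macrophage genes lay below 7.70 on all 8 arrays. C1qb, a chain of complement C1q, stood at 6.65 and 6.81 in the K14Snail positive fractions, against 6.16 and 6.47 in wild type, and at 6.34 and 6.13 in the K14Snail negative fractions, against 6.12 and 6.34 in wild type. C1qa, the A chain, ranged over 7.02 to 7.40, C1qc, the C chain, over 6.09 to 6.33 and the mannose receptor Mrc1 over 5.41 to 5.83. Cd14, a coreceptor for lipopolysaccharide, was at 6.26 to 6.58 and Aif1, an actin-binding protein of macrophages, at 5.73 to 6.12. Ly86, a partner of the receptor RP105, read 7.07 and 6.90 in the K14Snail positive fractions, against 6.24 and 6.30 in wild type, and passed with no filter (0.72 ± 0.10, limma adjusted p = 0.0368). Mpeg1, the pore-forming perforin-2, differed by 0.69 ± 0.19 and Cybb, a subunit of the phagocyte oxidase, by 0.55 ± 0.16, and neither passed with no filter (limma adjusted p = 0.150 and 0.167).

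**Figure D3:**
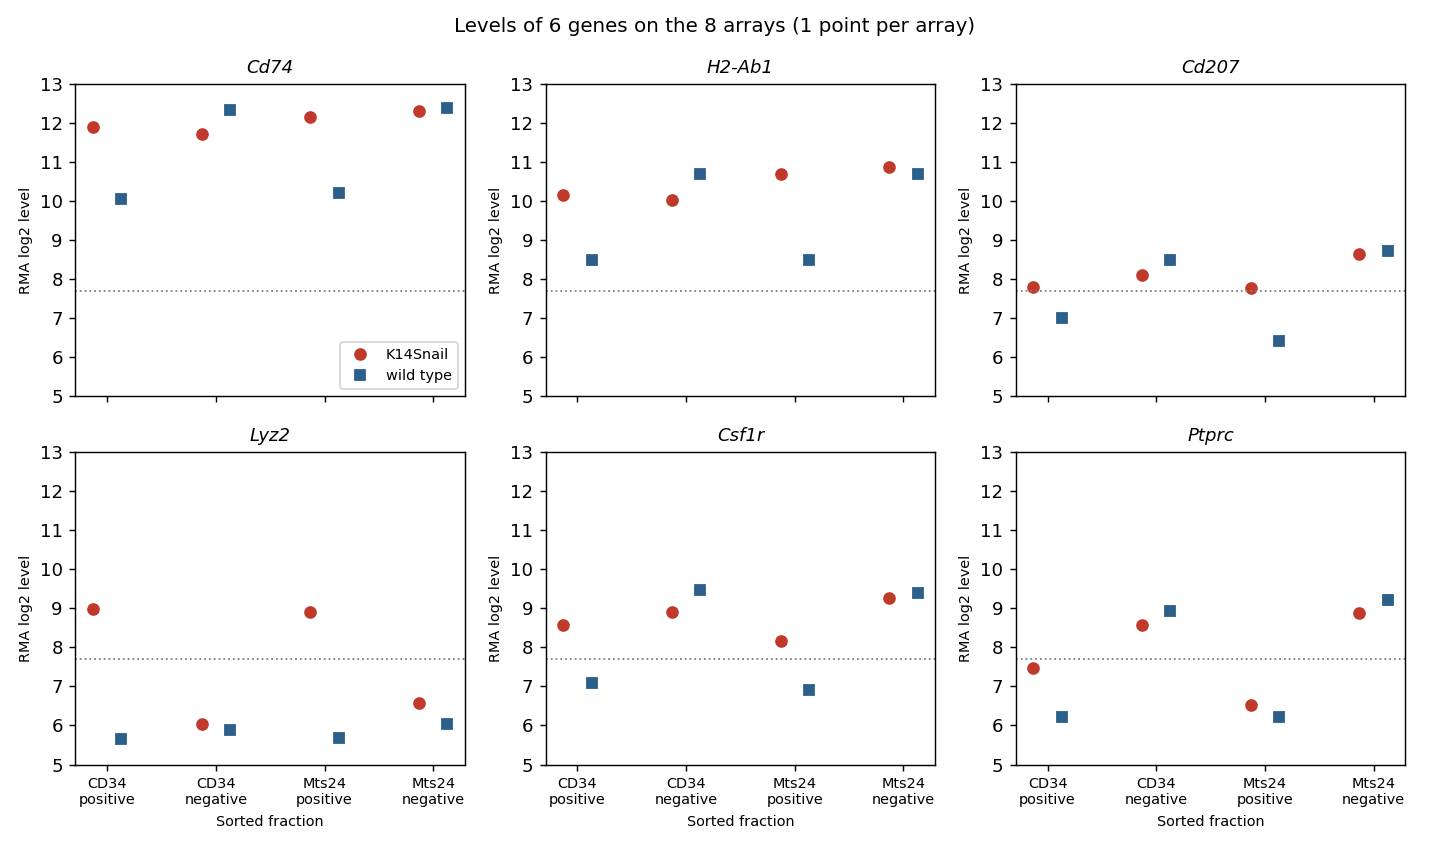
Log2 level of 6 genes (panels) on the 8 arrays, with K14Snail as red circles left of wild type as blue squares in each sorted fraction, and the filter level of 7.70 as a dotted line. Cd74, H2-Ab1, Cd207 and Csf1r are lowest on the 2 wild type positive arrays, and Lyz2 is high only on the 2 K14Snail positive arrays. Ptprc is below 7.70 in positive fractions of both genotypes, at 7.47 and 6.52 in K14Snail and at 6.22 and 6.22 in wild type.

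The signalling adaptors of Fc and related receptors differed from one another. Tyrobp (DAP12), an adaptor with an activating ITAM motif, had levels of 8.57 and 8.42 in the K14Snail positive fractions, against 7.20 and 7.18 in the wild type positive fractions. Among negative fractions it was at 8.61 and 9.14 in K14Snail, against 9.11 and 9.24 in wild type. It rose by 1.31 ± 0.12 in the positive fractions (limma adjusted p = 0.0238). Fcer1g, the common Fc receptor gamma chain, read 7.61 and 7.30 in the K14Snail positive fractions, against 7.37 and 6.98 in wild type, and 8.68 and 9.32 in the K14Snail negative fractions, against 9.50 and 9.95 in wild type. Its positive fraction difference was 0.28 (limma adjusted p = 0.170) and its negative fraction difference -0.73 ± 0.10 (limma adjusted p = 0.129), and neither passed. The receptors Fcgr3, an activating receptor for IgG, and Fcgr2b, the inhibitory one, lay below 7.70 on all 8 arrays, at 6.38 to 7.06 and at 6.31 to 7.01.

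Of the wider leukocyte genes 4 of the 7 tested rose in the K14Snail positive fractions. Laptm5, a lysosomal membrane protein of blood cells, read 9.19 and 8.81 in the K14Snail positive fractions, against 7.91 and 7.51 in the wild type positive fractions. It read 9.89 and 10.33 in the K14Snail negative fractions, against 10.38 and 10.69 in wild type. K14Snail positive levels lay between the others in both sorts, and the rise was 1.29 ± 0.09 (limma adjusted p = 0.0147). Cd53, a tetraspanin of leukocytes, read 8.30 and 8.20 in the K14Snail positive fractions, against 6.89 and 6.62 in wild type, and 8.99 and 9.87 in the K14Snail negative fractions, against 9.56 and 10.10 in wild type (1.49 ± 0.12 in the positive fractions, limma adjusted p = 0.0203). Cd52, a small glycoprotein of lymphocytes and other leukocytes, read 8.04 and 8.39 in the K14Snail positive fractions, against 6.85 and 7.37 in wild type, and 8.76 and 9.62 in the K14Snail negative fractions, against 9.28 and 9.54 in wild type (1.10 ± 0.16 in the positive fractions, limma adjusted p = 0.0428). For each of these genes both K14Snail positive levels lay above both wild type positive levels. They are named here because they passed the test, so this adds no support, and its share over all genes was not counted.

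Spi1 (PU.1), the transcription factor of myeloid and B cell fate, had levels of 7.79 and 7.77 in the K14Snail positive fractions, against 6.36 and 6.94 in the wild type positive fractions, and of 8.16 and 8.77 in the K14Snail negative fractions, against 8.52 and 8.76 in wild type. Its rise of 1.13 ± 0.17 was close to the threshold (limma adjusted p = 0.0460), with an adjusted p of 0.0561 at a pool correlation of 0.25 and of 0.0563 with each array centred on its median. Ptprc (CD45), the phosphatase found on all nucleated blood cells, read 7.47 and 6.52 in the K14Snail positive fractions, against 6.22 and 6.22 in wild type, and 8.57 and 8.89 in the K14Snail negative fractions, against 8.92 and 9.22 in wild type. The K14Snail minus wild type difference was 1.25 in the CD34 pair and 0.30 in the Mts24 pair, and its mean of 0.78 ± 0.23 did not pass (limma adjusted p = 0.141). Coro1a, an actin regulator of leukocytes, read 8.18 and 7.80 in the K14Snail positive fractions, against 7.35 and 7.55 in wild type, and 8.40 and 8.62 in the K14Snail negative fractions, against 8.42 and 8.75 in wild type. Alox5ap, which presents arachidonic acid to 5-lipoxygenase, read 9.42 and 8.84 in the K14Snail positive fractions, against 8.88 and 8.46 in wild type, and 9.11 and 9.28 in the K14Snail negative fractions, against 9.24 and 9.22 in wild type. Coro1a (0.53, limma adjusted p = 0.144) and Alox5ap (0.46, limma adjusted p = 0.0826) did not pass. Cd48, a receptor ligand of lymphocytes, Plek, a substrate of protein kinase C in platelets and leukocytes, and Lst1, a leukocyte transcript of the MHC region, lay below 7.70 on all 8 arrays.

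The promoters of Laptm5, Cd53 and Lyz2 are shown as those of 2 leukocyte genes and the macrophage gene with the largest differences, drawn in the same way as above with GAGGAA and ATTGG in capitals. Laptm5 is at chr4:130913166-130913315 (plus strand), Cd53 at chr3:106790150-106790299 (minus strand) and Lyz2 at chr10:117282273-117282422 (minus strand), again as GRCm38.p6.
Laptm5: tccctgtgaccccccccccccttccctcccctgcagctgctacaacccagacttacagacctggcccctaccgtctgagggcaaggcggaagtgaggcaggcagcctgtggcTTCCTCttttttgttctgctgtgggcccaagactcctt
Cd53: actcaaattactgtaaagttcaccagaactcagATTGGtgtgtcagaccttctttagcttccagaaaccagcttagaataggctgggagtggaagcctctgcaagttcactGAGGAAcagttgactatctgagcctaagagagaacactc
Lyz2: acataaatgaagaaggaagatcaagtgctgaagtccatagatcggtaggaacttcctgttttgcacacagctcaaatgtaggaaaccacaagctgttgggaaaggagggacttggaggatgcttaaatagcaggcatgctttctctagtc

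GAGGAA stood within 250 bases before the start in 13 of the 25 genes, against 23.3% of all windows, and in 4 of the 6 leukocyte genes with a promoter (Cd53, Laptm5, Plek and Ptprc). The Lyz2 stretch held no match to the motifs searched.

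Averaged over the 4 fractions, 0 of the 19 tested genes passed for genotype, where 2.05% of all tested genes did, and with no filter 0 of the 37, where 0.878% of all genes did. An unadjusted p under 0.05 was found for 3 of the 19, 15.8%, and for 25.9% of all tested genes. The largest was Lyz2 (1.80 ± 0.52, limma adjusted p = 0.118). The direct test of whether the genotype difference itself differs between positive and negative fractions passed for 0 of the 19 genes and for 0% of all tested genes, and with no filter for 0 of the 37 and 0% of all genes. Here 17 of the 19, and 845 of all 10720 genes, had an unadjusted p under 0.05. All 19 differences were positive, where 58.2% of all tested genes had a positive one. Most of the 19 passed the filter only through groups in which they are higher, so these signs are partly set by the filter. Among the 18 genes that did not pass it, Mrc1 (-0.31), Cd80 (-0.24), Lst1 (-0.17) and C1qc (-0.04) had a negative difference and the others a positive one. The lowest adjusted p was 0.118, for Lyz2 at 2.93 ± 0.18 and Laptm5 at 1.72 ± 0.13. At a pool correlation of 0.25 Lyz2, Laptm5 and Cd53 passed (limma adjusted p = 0.0320, 0.0320 and 0.0447), 3 of 8 genes called in all. Without a CD34 positive array 12 of the 19 passed, where 0.97% of all tested genes did, and without an Mts24 positive array 16, where 6.07% did.

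Set out by genotype instead, the same arrays show how the positive fractions stood against the negative ones, in 2 comparisons added after the data had been seen. By single pairs, 16 of the 37 genes were at least 2-fold lower in both wild type positive fractions, where 1.29% of all genes were. In K14Snail 2 of the 37 were lower and 1 higher, where 1.56% and 1.27% of all genes were. In wild type mice 16 of the 19 tested genes fell in the positive fractions and 0 rose, where 10.7% of all tested genes fell and 10.6% rose. With no filter 20 of the 37 fell, where 5.84% of all genes did. Ptprc and Fcer1g, which entered the test only through the negative arrays, are among the 20. The steepest were Cd53 (-3.07 ± 0.13, limma adjusted p = 0.00096), Ptprc (-2.85 ± 0.25, limma adjusted p = 0.0027), Laptm5 (-2.83 ± 0.09, limma adjusted p = 0.00087) and Fcer1g (-2.55 ± 0.10, limma adjusted p = 0.00089). Cd74 (-2.22 ± 0.17), H2-Ab1 (-2.21 ± 0.28), H2-Aa (-1.94 ± 0.19), Cd207 (-1.89 ± 0.20) and Csf1r (-2.44 ± 0.14) fell too. H2-Eb1, Lyz2 and Cd68 did not pass. Over all 37 genes, 32 had their lowest level on a wild type positive array, 86.5%, where 22.3% of all genes did.

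In K14Snail mice 6 of the 19 tested genes fell in the positive fractions and 1 rose, where 12.5% of all tested genes fell and 12.9% rose. The 7 calls, where 25.4% of all tested genes were called, became 11 without either wild type positive array (37.7%) or at a pool correlation of 0.25 (36.5%). They became 3 without the K14Snail Mts24 negative array (5.25%). With no filter the same 6 of the 37 fell and 1 rose, where 7.06% and 7.17% of all genes did. Those that fell were Ptprc (-1.74 ± 0.25), Fcer1g (-1.55 ± 0.10), Cd53 (-1.18 ± 0.13), Laptm5 (-1.11 ± 0.09), Cd52 (-0.98 ± 0.17) and Csf1r (-0.71 ± 0.14). The one that rose was Lyz2, by 2.63 ± 0.12 (limma adjusted p = 0.0012). Of the class II genes 0 of 6 passed. Cd74 differed by 0.01 ± 0.17, H2-Ab1 by -0.03 ± 0.28, Ctss by -0.11 ± 0.10 and H2-Aa by -0.13 ± 0.19 between K14Snail positive and negative fractions. These comparisons and those between genotypes use the same arrays and are not independent of one another.

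**Figure D4:**
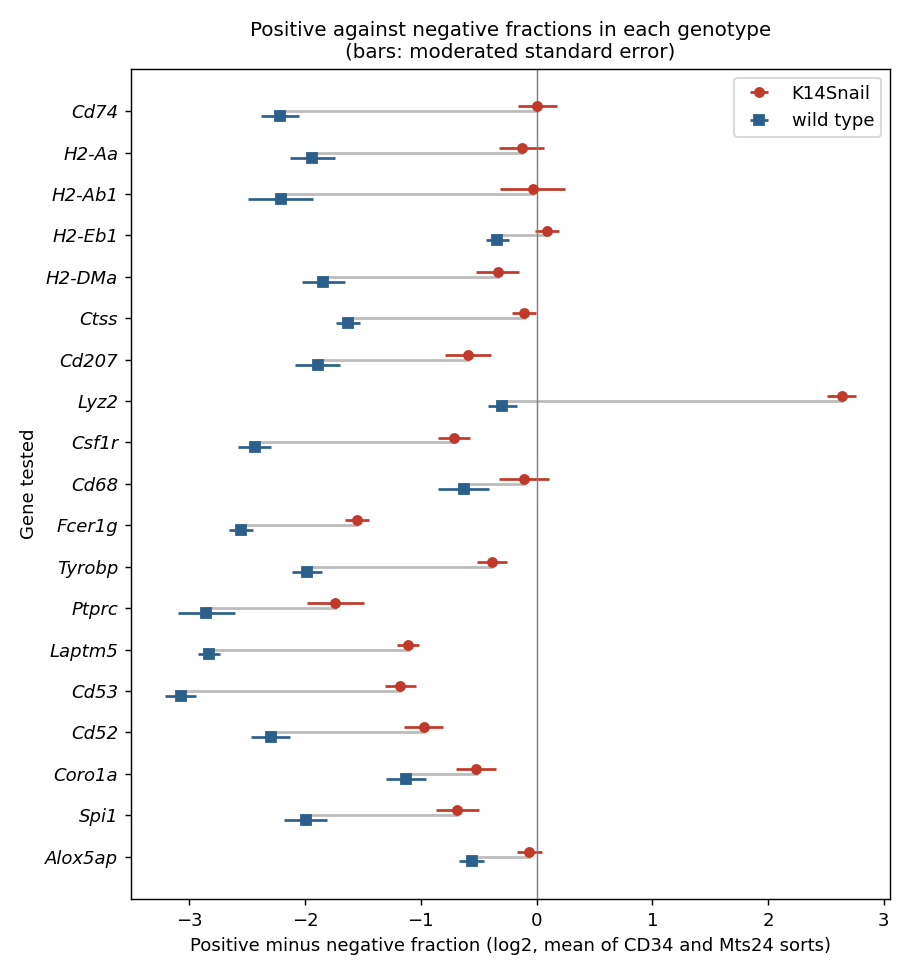
Positive minus negative fraction difference in log2 level (horizontal axis, mean of the CD34 and Mts24 sorts) of the 19 tested genes (rows), for K14Snail (red circles) and wild type (blue squares), with bars for the moderated standard error. All 19 wild type values lie below 0, from -0.30 to -3.07, where 53.4% of all tested genes do. The filter favours this side. With no filter, 29 of the 37 genes were below 0 in both wild type pairs and 2 above 0 in both, where 5940 and 6814 of all 19938 genes were. The K14Snail values of Cd74, H2-Aa, H2-Ab1 and Ctss lie near 0 and that of Lyz2 is 2.63.

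Taken over both genotypes, CD34 positive cells differed from CD34 negative cells in 3 of the 19 genes, all lower, where 11.6% of all tested genes were lower and 12.1% higher. These were Ptprc (-1.90 ± 0.40, limma adjusted p = 0.0213), Fcer1g (-1.61 ± 0.31, limma adjusted p = 0.0160) and Cd52 (-1.58 ± 0.42, limma adjusted p = 0.0447). The same 3 of the 37 passed with no filter, where 6.14% of all genes were lower. Mts24 positive cells differed from Mts24 negative cells in 7 of the 19 genes, all lower, where 11.7% of all tested genes were lower and 11.1% higher. Ptprc (-2.69 ± 0.40), Cd53 (-2.57 ± 0.57), Fcer1g (-2.50 ± 0.31), Laptm5 (-2.35 ± 0.51), Cd52 (-1.70 ± 0.42), Cd207 (-1.59 ± 0.42) and Coro1a (-1.01 ± 0.24) fell there. With no filter 9 of the 37 fell, Cd48 and Plek being added, where 6.42% of all genes did. Ptprc and Fcer1g are in both counts and reached the filter level on the negative arrays alone. The difference between the CD34 and the Mts24 enrichment passed for 0 of the 19 genes, where 4.08% of all tested genes passed, and 0 of the 19 had an unadjusted p under 0.05, against 17.9% of all tested genes. With no filter 0 of the 37 passed, where 2.19% of all genes did. In these comparisons the genotypes serve as replicates, and the CD34 count is close to its background share. The CD34 count was 5 without the K14Snail and 1 without the wild type CD34 positive array, and 0 without the wild type CD34 negative one. Of all tested genes 19.4%, 20.7% and 11.2% were called there. The Mts24 count was 3 and 1 without the K14Snail and wild type Mts24 positive arrays, where 9.21% and 9.13% of all tested genes were called. It was 2 and 1 without the K14Snail and wild type Mts24 negative ones, where 6.17% and 7.54% were.

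Genes that bring or keep myeloid cells in the skin were mixed. Ccl2, a chemokine that attracts monocytes, read 9.87 and 11.21 in the K14Snail positive fractions, against 7.61 and 9.64 in wild type, and 9.01 and 7.81 in the K14Snail negative fractions, against 7.76 and 6.99 in wild type. It was higher in K14Snail in all 4 pairs, by 1.47 ± 0.20 on average (limma adjusted p = 0.0375) and by 1.91 ± 0.21 in the positive fractions (limma adjusted p = 0.0311), the 1 of 8 tested genes of its list to pass. As for Lgmn, the call over the 4 fractions was not examined in other settings. In wild type positive fractions Il34 (-1.27 ± 0.11) and Csf1 (-1.002 ± 0.16), the ligands of Csf1r, and the fractalkine receptor Cx3cr1 (-0.90 ± 0.10) fell relative to the negative fractions. In K14Snail Il34 (-0.77 ± 0.11), Cx3cr1 (-0.68 ± 0.10) and the chemokine Ccl6 (-1.20 ± 0.10) fell there. Ccl2 rose in the positive fractions of both, by 2.13 ± 0.23 in K14Snail and by 1.25 ± 0.23 in wild type.

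Further dendritic and Langerhans cell genes gave 0 of 6 tested for genotype in the positive fractions. Itgax (CD11c), an integrin of dendritic cells, read 7.36 and 7.10 in the K14Snail positive fractions, against 6.28 and 6.47 in wild type (0.86 ± 0.15, limma adjusted p = 0.0592). In wild type the positive fractions were lower than the negative ones in Runx3 (-1.94 ± 0.12), a factor that Langerhans cells need and T cells share, and in Itgax (-1.43 ± 0.16). Epcam and Id2, which follicle keratinocytes also express, were higher there, by 0.54 ± 0.11 and 1.31 ± 0.12. In K14Snail Runx3 fell (-1.10 ± 0.12) and Id2 (0.84 ± 0.12) and Epcam (0.73 ± 0.11) rose in the positive fractions. Ifngr1, a receptor for interferon gamma, and the kinase Jak1 fell in the positive fractions of K14Snail (-0.80 ± 0.12 and -0.53 ± 0.10) and of wild type (-0.73 ± 0.12 and -0.64 ± 0.10), and Nfyb, an NF-Y subunit, fell in K14Snail (-0.48 ± 0.12). Ctsz (1.31 ± 0.11) and cathepsin B, Ctsb (0.41 ± 0.09), rose in the K14Snail positive fractions, and Ctsz (0.91 ± 0.11), Lgmn (0.56 ± 0.11) and Ctsb (0.42 ± 0.09) in the wild type ones.

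Over both genotypes the CD34 positive cells were higher than CD34 negative cells in Mfge8, Id2 and Epcam and lower in Runx3, higher in Ctsz and Lgmn and lower in Ctsh, and lower in Ifngr1, Jak1, Il34 and Cx3cr1. Mts24 positive cells were higher than Mts24 negative cells in Epcam, Ctsb, Ctsz and Ifi30, and lower in Runx3 and Jak1. Of 5 growth and chemotaxis genes called there, Ccl2 (3.03 ± 0.34) and Ccl20 were higher and Ccl6 and Il34 lower. The CD34 enrichment exceeded the Mts24 one for Mfge8 and Id2, and was below it for Ifngr1 and Ccl2.

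Markers of other cell types were read beside these results. In K14Snail 4 of 6 tested T cell genes fell in the positive fractions relative to the negative ones, and in wild type 4 of 6, in each case Cd3g, Cd3e, Cd3d and Thy1. The log2 of the summed level of 11 T cell genes was 11.28 and 10.91 in the K14Snail positive fractions, against 11.04 and 11.11 in the wild type positive fractions, and 12.69 and 13.00 in the K14Snail negative fractions, against 13.04 and 13.43 in wild type. For genotype in the positive fractions 0 of 6 T cell genes passed. Of the 11 T cell genes, 8 were higher in K14Snail in the CD34 positive pair and 3 in the Mts24 positive pair, with median differences of 0.08 and -0.29. The same sum over the 7 class II genes was 13.06 and 13.35 in the K14Snail positive fractions, against 11.58 and 11.71 in the wild type positive fractions.

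All 7 B cell and all 8 endothelial markers lay below 7.70 on all 8 arrays. Of the 10 neutrophil genes 0 or 1 reached 7.70 on an array, and of the 8 mast cell genes 0 or 1. Of the 8 fibroblast genes 3 reached it in each K14Snail positive fraction, against 3 and 4 in the wild type positive fractions, and 0 of 4 tested passed for genotype there. Dcn, a fibroblast gene below 7.70 throughout and so not tested, read 7.64 and 7.54 in the K14Snail positive fractions, against 6.37 and 6.64 in wild type. Of the 8, 5 were higher and 3 lower in K14Snail in the CD34 positive pair, and 3 higher and 5 lower in the Mts24 positive pair. For the 12 keratinocyte genes 0 passed in the same comparison. The part that the makeup of the sorted cells plays in the differences of the 37 genes was not tested.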

How the data were processed

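Each of the 8 samples has 1 Affymetrix array. The authors deposited 1 table of normalized log2 values for 28874 probe sets, made with RMA per the submitters' processing notes. The settings of that step are not stated in what was read, and no scanner values were used. Symbols came from the platform annotation: 21789 probe sets name 1 gene, 1621 several and 5464 none. Per gene the probe set with the highest mean was kept (19938 genes, 999 of them with several). Genes with at least 2 of 8 arrays at or above 7.70, the median of all values, were tested (10720).

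Models were fitted with limma 3.58.1 (R 4.3.3, statmod 1.5.0) on all 8 arrays, with fraction as a covariate and the assumed pool (positive and negative arrays of one genotype and sort) as a random block by duplicateCorrelation (correlation -0.18). Residual degrees of freedom were 3, or 2 with the genotype by fraction term. An adjusted p under 0.05 (Benjamini-Hochberg over all tested genes) was called. With 1 array per group, p-values measure only the spread between sorts or genotypes, and the small number of arrays limits the precision. Single pairs of arrays have no test.

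All-array values were given by rule for 10 preset genes, for each gene that passed a test and for the 2 per role with the largest interaction. Of the other lists, at most 4 genes that passed were named per comparison; Irf1 and the genotype values of Itgax were added after their values were seen. The genes and lists were chosen with earlier results of these data known. Alternatives were no pool block, a pool correlation of 0.25, other filters, centring, quantile normalization, the mean of probe sets, an intensity trend, and leaving out each array or pool.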

Additional observations from a re-analysis of the deposited data

How the results depend on the processing

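Each of 45 calls of single genes was recomputed under the alternatives, which with all arrays kept gave 358 combinations of a call and a setting. In 356 of these the call kept its direction and side of the threshold, and in 2 Spi1 missed it. Over all 758 combinations, those that leave out an array or pool included, 643 kept the call, 115 lost it and 0 reversed it. A pool correlation of 0.25 gave 3 genes for the interaction and 11 for positive against negative in K14Snail, where 0.0746% and 36.5% of all tested genes were called. With no pool block the counts were 0 and 8, where 0% and 30.3% of all tested genes were called.

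Leaving out each array in turn gave 1 to 16 genes for genotype in the positive fractions, where 0.028% to 13.2% of all tested genes were called. It gave 0 to 1 in the negative fractions (0% to 3.04% of all tested genes) and 0 to 16 for the interaction (0% to 6.07%). For positive against negative it gave 0 to 5 for CD34 (10.8% to 21.3%) and 1 to 10 for Mts24 (6.17% to 27.0%). It gave 3 to 11 for positive against negative in K14Snail (5.25% to 37.7%) and 13 to 18 in wild type (4.53% to 32.7%). The shares over all tested genes moved too, so a change in a count is not a result about these genes alone. For genotype in the positive fractions, 1 gene (Lyz2) passed without any 1 of the 4 negative arrays, where 0.028% of all tested genes did. Each of these fits leaves 1 residual degree of freedom. Without a positive array the error comes from the negative fractions alone. The interaction then passed for 12 genes (CD34 arrays) or 16 (Mts24 arrays), where 0.97% and 6.07% of all tested genes passed. The CD34 count was 9 without the K14Snail CD34 pool, 1 without the wild type CD34 pool and 0 without either Mts24 pool. Of all tested genes 15.8%, 17.5% and 13.3% were called there. The Mts24 count was 13 without either CD34 pool and 0 without either Mts24 pool, where 26.7% and 0% of all tested genes were called. Genotype in single fraction types could not be fitted without a pool. The pool correlation could not be estimated in these smaller fits and was kept at the main value or set to 0. Each group has 1 array, so replicate numbers mark no pairing. Genotypes were compared within each fraction, which was a covariate of the model. The block added to it is an assumed pool, the positive and negative arrays of one genotype and sort.

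The deposited values carry no detection call, so differences of genes near or below 7.70, among them Lyz2 outside the K14Snail positive arrays, have uncertain size.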
